A study of Mus musculus with 4 samples.

Results

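Flat stretches without a preferred fork direction were examined in the DNA replication profile of mouse embryonic stem cells. A flat stretch was a run of at least 30 consecutive windows on an autosome whose mean polarity over the wild-type (WT) libraries lay between -10 and 10 points. Polarity is the signed strand imbalance of captured DNA 3′ ends, in percentage points from -50 to 50, in windows of 100 kb placed every 25 kb along GRCm38. The rule found 177 stretches with 7672 of the 95024 autosomal windows that had both WT values (8.07%), out of 109033 windows in the table. The study compared 2 WT libraries with 2 libraries of Snf2h knockout (KO) cells. Snf2h is the motor subunit of the ISWI family of remodellers. All were made by TrAEL-seq from 129S6/SvEvTac embryonic stem cells grown in serum and LIF on gelatine, with no other agent or allele named, and the cells of each genotype were cultured in duplicate per the series' design text. How the knockout was made, and whether it is a single clone, are not given in the sources used here. The table holds no read counts, so depth is unknown and no counting interval was computed for polarity. P-values compare KO with WT over these 2 cultures per genotype, and in limma the spread is pooled in part over windows. Spread between independently made knockouts cannot be read from them.

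Replication forks leave a fixed origin in opposite directions, so a region beside an efficient origin is copied by forks of one direction in most cells, and strand-specific methods read a strong imbalance there. A polarity near 0 means that both strands were captured about equally in the population of cells. This happens where forks of both directions pass in different cells, as in regions with many dispersed initiation sites, and for a short distance where forks of opposite direction meet. Long gene deserts of stem cells are known for late replication, and gene-dense regions for early replication. Snf2h slides nucleosomes and spaces them evenly. The strand counted as positive is not stated in the labels or headers, so positive and negative polarity are given below without naming a fork direction.

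The WT values chose the stretches, and their closeness to 0 in WT is therefore a description. Single windows within the bound were common (46628 windows, 49.1%), but only 16.5% of these belonged to a run long enough to count, and the median run was 5 windows long. The stretches spanned 0.825 to 3.8 Mb with a median of 1.05 Mb, and 98 were longer than 1 Mb. Together they covered 205 Mb, or 8.59% of the autosomal span with WT values. At the length threshold, 11 runs had 30 windows and 11 had 29. The 30-window runs had 67.6% of their windows within the bound in KO replicate 1 and 80% in KO replicate 2, against 73.4% and 77.4% in the runs of 29. The windows just inside an edge had a median absolute WT mean of 8.25 points and those just outside one of 11.3 points. Every stretch ended because polarity crossed the bound, at 176 edges upwards and at 178 downwards, and none ended at a missing value or a chromosome end. For comparison, runs of 30 or more windows on a single side of the bound numbered 145 and had a median length of 0.9 Mb and a maximum of 1.2 Mb.

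The stretches were unevenly spread over chromosomes. They took up 15.2% of the windows of chromosome 14, 14.6% of chromosome 16 and 12.8% of chromosome 1, but 4.07% of chromosome 19 and 4.27% of chromosome 13. In all, 36 stretches had another stretch within 500 kb. The longest stretch of all lay on chromosome 1, with 149 windows.

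Gene content divided the stretches into contrasting kinds. Of the 177 stretches, 66 held the midpoint of no protein-coding gene and 51 held that of a single one, whereas 20 held at least 20 protein-coding genes per Mb. The autosomal density was 8.51 protein-coding genes per Mb. Stretches with fewer than 2 protein-coding genes per Mb are called gene-poor here, and those above the autosomal density gene-dense, limits that were set after the counts were seen. There were 122 gene-poor stretches with 5592 windows (72.9% of stretch windows), 28 gene-dense stretches with 1094 windows (14.3%) and 27 intermediate ones with 986 windows (12.9%). The median gene density was 33.4 protein-coding genes per Mb in the gene-dense stretches and 0 in the gene-poor ones. The longest gene-dense stretch was 1.975 Mb long, and the gene-poor ones reached 3.8 Mb.

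**Figure D1:**
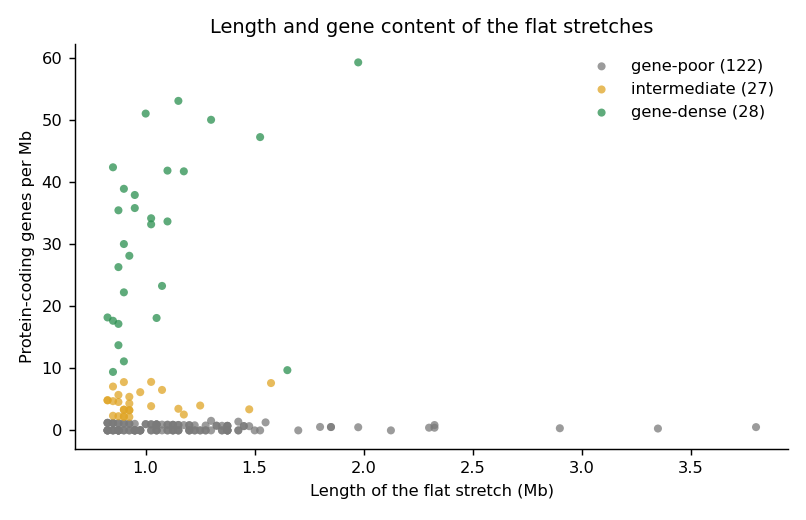
Length (Mb, x axis) and density of protein-coding genes (midpoints per Mb, y axis) of the 177 flat stretches, 1 point each, coloured as gene-poor (122), intermediate (27) or gene-dense (28). Most points lie near 0 genes per Mb at all lengths, and the gene-dense ones reach 59.2 genes per Mb.

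Over the whole set, 1150 of 20285 autosomal protein-coding genes had their midpoint in a stretch, which is 5.67% and below the 8.59% of the span that the stretches took up. The density was 5.61 protein-coding genes per Mb in the stretches and 5.68 in the runs on a single side of the bound, so a low gene content was not particular to flat stretches. The gene-dense stretches held 970 of these genes (84.3%). No protein-coding gene overlapped 62.7% of the stretch windows, against 32.6% of the other windows, but only 14.5% of the 33272 windows without such a gene lay in a flat stretch. Genes also differed in length between the kinds, with a median of 215 kb for the 61 genes in gene-poor stretches and 10.8 kb for the 970 in gene-dense ones. These shares are a census of the annotation, neighbouring genes share a stretch, and no test was made over genes.

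Gene families were set beside the share of all protein-coding genes in stretches, 5.67%. None of the 1103 olfactory receptor genes (the odorant receptors of the nose) had a midpoint in a stretch, whereas 4 of 272 vomeronasal receptor genes did. None of the 27 killer lectin receptor genes of natural killer cells and none of the 20 pluripotency genes had one either. These last lists are short. Their exact binomial 95% intervals, 0 to 12.8% and 0 to 16.8%, include the 5.67% of all protein-coding genes. Of the ribosomal protein genes, 10 of 91 (11.0%) lay in stretches, all in gene-dense ones, among them Rps15, Rps16 and Rpl8. Serpins had 6 of 62 (9.68%), zinc finger genes 27 of 382 (7.07%), protocadherins 3 of 67 (4.48%) and cytochrome P450 genes 2 of 99 (2.02%). MicroRNA genes numbered 99 of 1090 (9.08%), close to the 8.59% of the span in stretches, and 9 of them belonged to the Mir344 family and lay together in the gene-poor stretch chr7:60775001-61900000. Of the ISWI genes with autosomal positions, 1 of 11 was in a stretch, Cecr2, a partner of the ISWI ATPases.

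Long genes of the nervous system and of fragile sites were the list with the largest share. Of 40, 9 had their midpoint in a stretch (22.5%, exact binomial 95% interval 10.8% to 38.5%), against 5.67% of all protein-coding genes. In all, 14 overlapped a stretch (35.0%), against 5.89% of all protein-coding genes and 10.1% of those of at least 300 kb. Longer genes overlap a stretch more easily. The 9 genes were 879 to 1643 kb long, so the genes of at least 300 kb are not matched to them in length. The 9 were Csmd1, Dcc (a netrin receptor), Fhit and Wwox (fragile site genes), Magi2 (a synaptic scaffold), Pcdh9 and Pcdh15 (protocadherins), Rbfox1 (a splicing factor) and Cadm2 (a cell adhesion molecule). Among all 533 protein-coding genes of at least 300 kb, 39 had their midpoint in a stretch (7.32%), a share closer to the background.

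The genes of the different kinds of stretch also differed in promoter sequence, which the polarity of 100 kb windows does not resolve. A promoter was matched for 16457 of the 20285 genes (81.1%), from a RefSeq table of GRCm38.p6. Of these promoters, 9841 were at the outer start of the gene, and the others were at another listed start. In the 250 bases before the start, counted on the listed strand, the dinucleotide CG occurred a median of 14 times for 745 genes in gene-dense stretches, 6 times for 53 genes in gene-poor stretches, 5 times for 87 genes in intermediate ones and 10 times for all genes. At least 10 occurrences were found in 68.6% of the gene-dense, 35.8% of the gene-poor, 39.1% of the intermediate and 51.7% of all promoters. These are differences between medians, and single promoters overlapped. The promoters below come from the longest stretches of each kind with a named gene that had a promoter, taking in each stretch the gene nearest the median of its kind. They are shown with CG in capitals, read 5′ to 3′ towards the gene. That of Slitrk1, a transmembrane protein of neurons, lies on the minus strand at chr14:108914240-108914489 and has 9 occurrences and 40.4% G and C. That of Brinp1, also in a gene-poor stretch, lies on the minus strand at chr4:68954398-68954647 and has 11 occurrences and 62% G and C. That of Dapk3, a kinase linked to cell death, at a listed start that is not the outermost of the gene, lies on the plus strand at chr10:81182757-81183006 and has 14 occurrences and 54.8% G and C. That of Vax1, a homeobox gene in a gene-dense stretch, lies on the minus strand at chr19:59170398-59170647 and has 11 occurrences and 44.8% G and C. Brinp1 and Vax1 thus had the same number of occurrences in stretches of opposite kinds.
Slitrk1: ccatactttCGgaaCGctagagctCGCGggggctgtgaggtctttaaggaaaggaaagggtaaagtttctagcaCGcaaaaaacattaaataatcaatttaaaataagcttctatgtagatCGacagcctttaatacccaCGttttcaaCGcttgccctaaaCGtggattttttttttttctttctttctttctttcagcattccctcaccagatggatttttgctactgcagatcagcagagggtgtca
Brinp1: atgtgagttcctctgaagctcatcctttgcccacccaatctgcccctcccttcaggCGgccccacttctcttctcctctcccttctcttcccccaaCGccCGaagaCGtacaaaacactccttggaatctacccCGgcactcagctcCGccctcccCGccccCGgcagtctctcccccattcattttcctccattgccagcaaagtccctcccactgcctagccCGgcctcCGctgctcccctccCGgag
Dapk3: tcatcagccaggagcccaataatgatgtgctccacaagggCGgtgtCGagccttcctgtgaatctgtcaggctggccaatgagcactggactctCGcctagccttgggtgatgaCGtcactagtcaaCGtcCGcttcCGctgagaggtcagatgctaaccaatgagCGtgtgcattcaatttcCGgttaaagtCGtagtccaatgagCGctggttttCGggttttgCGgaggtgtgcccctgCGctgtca
Vax1: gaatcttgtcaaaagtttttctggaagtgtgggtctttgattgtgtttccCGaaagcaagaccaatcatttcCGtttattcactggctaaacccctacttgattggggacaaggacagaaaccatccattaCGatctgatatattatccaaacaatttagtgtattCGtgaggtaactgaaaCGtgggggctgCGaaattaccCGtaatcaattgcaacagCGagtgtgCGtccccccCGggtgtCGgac

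The longest stretches are given with their libraries. The longest, chr1:25925001-29725000, spanned 3.8 Mb and held the protein-coding genes 4931408C20Rik and Gm597 beside pseudogenes and lncRNA genes. Its mean polarity was 0.0250 points in WT replicate 1, 0.463 in WT replicate 2, 0.952 in KO replicate 1 and 1.61 in KO replicate 2, and 94.6% and 91.9% of its windows lay within the bound in KO replicates 1 and 2. The mean of every library was thus close to 0, and the extremes were -11.3 and 16.7 points. The stretch chr8:99850001-103200000 (3.35 Mb) held Cdh11, a classical cadherin, as its only protein-coding gene. There KO replicate 1 lay apart, with a mean of -5.01 points and 77.9% of windows within the bound, whereas KO replicate 2 had -1.09 points and 96.9%. The stretch chr14:106850001-109750000 (2.9 Mb) held Slitrk1, and polarity over it ranged from -13.1 to 8.23 points in WT replicate 1, from -10 to 7.97 in WT replicate 2, from -21.9 to 20.6 in KO replicate 1 and from -13.9 to 15.8 in KO replicate 2. KO replicate 1 thus had the widest range, and KO replicate 2 lay closer to WT replicate 1.

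Other long stretches were gene-poor too. On chromosome 4, chr4:67100001-69425000 held Brinp1, a neuronal protein, and had 63.3% and 68.9% of its windows within the bound in the KO libraries. The stretch chr4:35750001-38050000 held Lingo2, a leucine-rich repeat protein of neurons, with 58.4% and 74.2%. In contrast, chr6:103950001-106275000 with the contactin genes Cntn4 and Cntn6 kept 85.6% and 86.7%, and chr17:59275001-61400000, with no protein-coding gene over 2.125 Mb, kept 89.0% and 84.1%. The stretches chr2:95025001-97000000 with Lrrc4c, a netrin-G ligand, and chr7:53275001-55125000 with Luzp2 kept 76.3% and 77.6%, and 54.9% and 73.2%. The next longest stretches without the midpoint of a protein-coding gene were chr16:60450001-62150000, with 75.4% and 92.3%, and chr10:47850001-49375000, with 69.0% and 81.0%. Mean KO shares of the 10 longest stretches ran from 64.1% to 93.3% on the deposited scale. With the bound scaled to each library's SD they ran from 75% to 96.6%, and KO replicate 1 had 82.0% in the stretch with Lingo2 and 73.2% in that with Luzp2.

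The only gene-dense stretch among the 10 longest, chr10:79675001-81650000, held 117 protein-coding genes, 59.2 per Mb, the highest density of all. Its genes include Dot1l, which methylates histone H3, the transcription factor gene Nfic, Ap3d1 of the AP-3 adaptor, Gng7 and Sbno2. Mean polarity was 0.0796, -0.950, -0.728 and -1.33 points in WT replicates 1 and 2 and KO replicates 1 and 2, and 92.1% and 90.8% of its windows stayed within the bound in KO. The next in density were chr8:69775001-70925000 (53.0 per Mb, with Gatad2a of the NuRD complex, Crtc1 and Ell), chr8:105225001-106225000 (51.0 per Mb, with Ctcf, the insulator protein gene, and Nfatc3), chr15:75825001-77125000 (50.0 per Mb, with Plec and Mb) and chr7:126175001-127700000 (47.2 per Mb, with Srcap, a chromatin remodeller gene). In KO replicate 1 they kept 83.7%, 67.6%, 83.7% and 65.5% of their windows within the bound, and in KO replicate 2 they kept 83.7%, 70.3%, 95.9% and 87.9%.

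**Figure D2:**
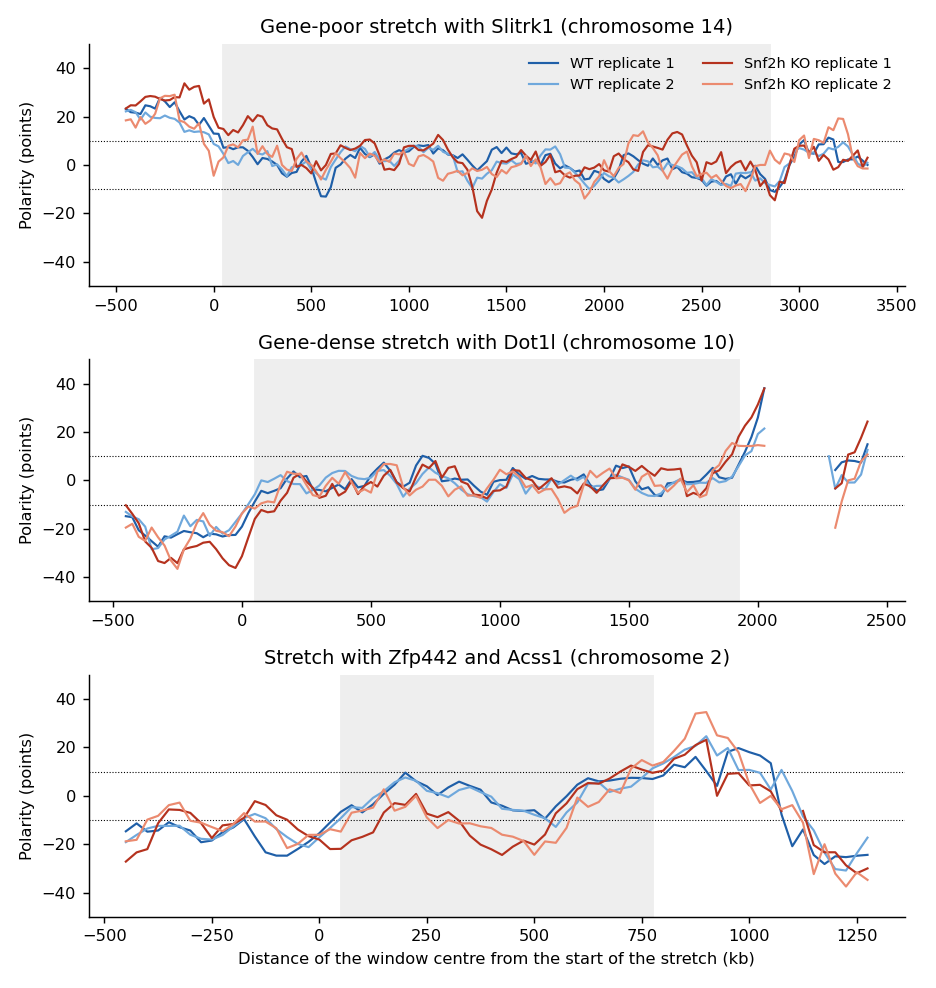
Polarity (points, y axis) in each of the 4 libraries along 3 flat stretches (grey) and 500 kb on either side, by distance of the window centre from the start of the stretch (kb, x axis), with dotted lines at -10 and 10 points and gaps where a window has no value. Both KO lines leave the bound on either side in the stretches with Slitrk1 and Dot1l, and both KO lines reach -24.4 points in the stretch with Zfp442 and Acss1.

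The polarity on either side of gene-dense stretches differed from that beside the other kinds, and the rule, which treats both signs alike, did not fix it. Around gene-poor stretches, mean polarity over the 20 windows before the start was 8.79 and 7.57 points in WT replicates 1 and 2 and 11.8 and 7.49 points in KO replicates 1 and 2. Over the 20 windows after the end it was -9.90, -8.24, -12.4 and -8.64 points. Around gene-dense stretches the order was the opposite, with -5.67, -4.99, -7.23 and -5.44 points before the start and 4.74, 3.73, 6.37 and 3.87 points after the end. Intermediate stretches had the gene-poor order, with 7.52, 5.32, 7.59 and 5.48 points before the start and -4.01, -3.76, -5.27 and -4.08 points after the end. The change from left to right was -20.2 ± 5.76 points in KO around gene-poor stretches and 11.5 ± 3.03 points around gene-dense ones (SD, n = 2 each). The sign was the same in all 4 libraries within each kind, and no test was made, because the kinds were set after the values were seen.

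Single stretches followed the same pattern in part. Of the 122 gene-poor stretches, 77 had a positive left and a negative right flank in both KO libraries and 1 had the reverse in both. Of the 28 gene-dense stretches, 2 had a positive left and a negative right flank in both KO libraries and 12 had the reverse. In WT, the mean profile left gene-poor stretches upwards on the left and downwards on the right in 96 of 122, and gene-dense ones the other way in 16 of 28. Flanks can hold part of a neighbouring stretch, and the number of windows used changed the size of the difference around gene-dense stretches but not its sign.

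Gene-poor stretches also sloped within the bound. Over their first 10 windows, mean polarity was 3.94 and 3.08 points in WT replicates 1 and 2 and 6.14 and 3.97 points in KO replicates 1 and 2. Over their last 10 windows it was -3.94, -3.34, -6.97 and -3.93 points. Polarity was lower at the end than at the start in 114 of 122 stretches in KO replicate 1 and in 106 of 122 in KO replicate 2. In the intermediate stretches it was lower at the end in 16 and 18 of 27, and in the gene-dense ones in 9 and 11 of 28. On average a gene-poor stretch was thus a slow fall through 0 in each library, whereas gene-dense stretches had means of -2.15 to 3.02 points over their first and last 10 windows.

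**Figure D3:**
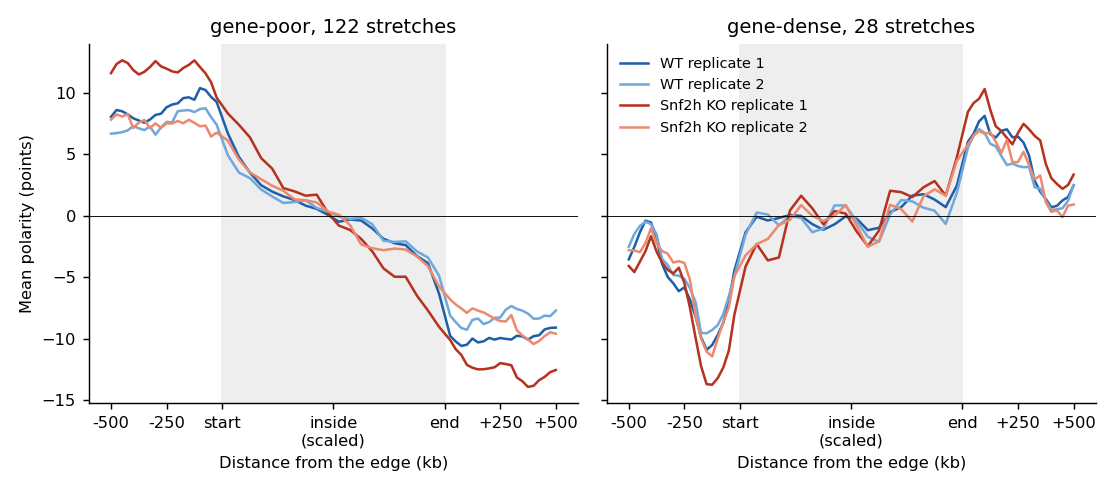
Mean polarity (points, y axis) across the 122 gene-poor and 28 gene-dense flat stretches (grey, each scaled to the same width) and the 500 kb on either side (kb, x axis), 1 line per library. All 4 lines fall from left to right in the gene-poor stretches, and they rise from below 0 on the left to above 0 on the right of the gene-dense ones.

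Whether the stretches stay flat without Snf2h was read in the KO libraries, which took no part in the rule. Of their windows, 72.8% in KO replicate 1 and 82.6% in KO replicate 2 lay within 10 points of 0 (77.7% ± 6.92, SD, n = 2), against 32.1% and 44.7% of the other autosomal windows. The WT libraries had 93.4% and 95.8%, but these values chose the stretches. The root mean square (RMS) polarity in the stretches was 9.12 and 7.56 points in KO replicates 1 and 2, against 20.1 and 15.0 points elsewhere, a ratio of 0.454 and 0.505. The stretches thus remained low in amplitude in both KO libraries. Both KO libraries lay beyond the bound on the same side in 658 of 7672 stretch windows (8.58%), against 46.7% of all autosomal windows.

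A fair reference for KO needs a WT library that did not choose the stretches. Runs chosen from WT replicate 1 alone numbered 109, and within them 93.4% of windows lay within the bound in WT replicate 2, 75.1% in KO replicate 1 and 83.8% in KO replicate 2. Runs chosen from WT replicate 2 alone numbered 155, and the shares were 87.5% in WT replicate 1, 71.4% in KO replicate 1 and 82.6% in KO replicate 2. Both KO libraries were thus below the WT library left out, in both directions of the check. Amplitude differed between the libraries over the whole genome, with an SD of polarity of 14.6 and 12.8 points for the WT replicates and 19.5 and 14.5 points for the KO replicates. With the bound scaled to the SD of each library, the shares in runs from WT replicate 1 were 88.8%, 86.8% and 82.5% in WT replicate 2 and KO replicates 1 and 2, and those in runs from WT replicate 2 were 92.2%, 89.0% and 86.8% in WT replicate 1 and KO replicates 1 and 2. The KO shares were again below that of the WT library left out. The gap narrowed with scaling except for KO replicate 2 in runs from WT replicate 2. As a ratio of RMS polarity inside to outside, WT replicate 2 had 0.428 in runs from WT replicate 1, KO replicate 1 had 0.439 and KO replicate 2 had 0.500. In runs from WT replicate 2, WT replicate 1 had 0.429, KO replicate 1 had 0.472 and KO replicate 2 had 0.510. With 1 WT library against 2 KO libraries, no test was made.

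**Figure D4:**
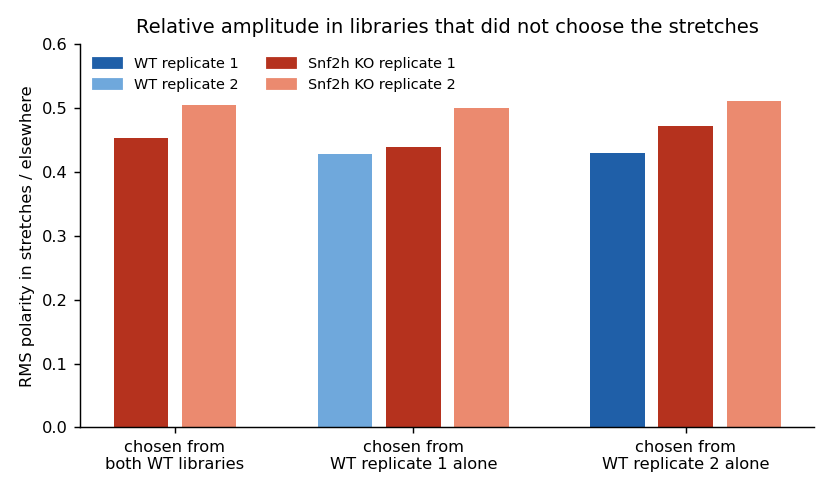
RMS polarity in flat stretches divided by that in all other autosomal windows (y axis, from 0), for each library that did not choose the stretches. The bars of the WT library left out stand at 0.428 and 0.429, and those of the KO libraries between 0.439 and 0.510.

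Single stretches varied in how flat they stayed. A stretch counted as flat in a library when at least 80% of its windows lay within the bound. By this measure 45 stretches were flat in KO replicate 1 and 108 in KO replicate 2, 34 in both and 58 in neither. With the bound scaled to each library's SD, 143 and 126 were flat, 111 in both. The KO shares were lowest in intermediate stretches. In KO replicate 1, 73.8% of gene-poor and 74.1% of gene-dense windows lay within the bound, and 65.7% of intermediate ones. In KO replicate 2 these shares were 83.3%, 84.5% and 76.8%.

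**Figure D5:**
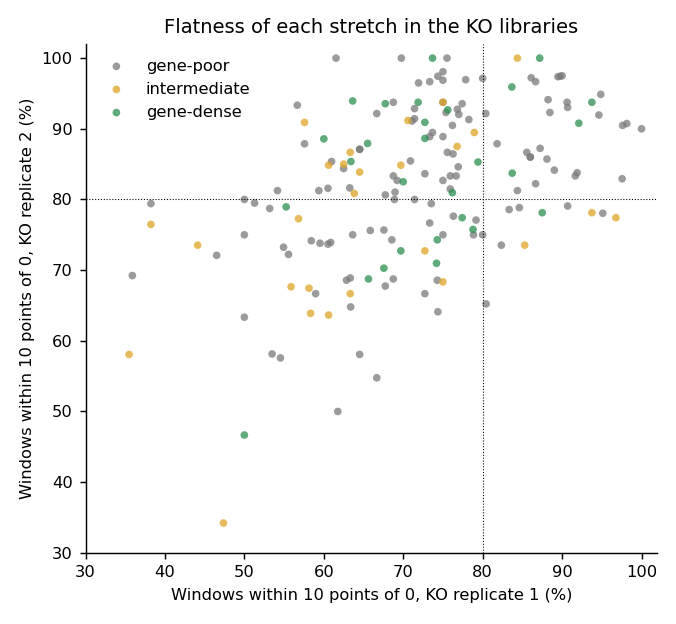
Share of windows within 10 points of 0 (%) in KO replicate 1 (x axis) and KO replicate 2 (y axis) for each of the 177 flat stretches, coloured by gene content, with dotted lines at 80%. The 34 stretches in the upper right corner were flat in both KO libraries, and the lowest shares were 35.5% and 34.2%.

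The stretches that stayed flattest in KO on the deposited scale were gene-poor, as were 122 of all 177, except that a gene-dense one tied for the fifth place. Of the first 5, 3 lay on chromosome 14. The highest was chr14:113100001-113925000, where the annotation lists 2 pseudogenes, with 100% and 90% of windows within the bound in KO replicates 1 and 2. The neighbouring chr14:112050001-113100000 had 94.9% in both. The stretch chr14:95900001-97025000 with Klhl1, a neuronal kelch protein, had 97.6% and 90.5%. The others were chr3:70900001-72325000 with 98.1% and 90.7%, and chr8:97700001-98775000 with 90% and 97.5%, neither with a protein-coding gene. The latter had the same mean share, 93.75%, as a gene-dense stretch on chromosome 2, which had 93.75% in both KO libraries. The order depended on the scale. With the scaled bound the highest was a gene-dense stretch on chromosome 16, starting at 32350001, with 100% in both KO libraries, and chr14:113100001-113925000 had a mean of 95%.

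Of the 5 stretches that were least flat in KO, 2 were gene-poor, 2 intermediate and 1 gene-dense. As given above, the KO shares over all gene-poor and all gene-dense stretches were close to each other. On the deposited scale the lowest mean share was in chr2:60800001-61825000, which holds Rbms1, Tank, Psmd14 (a proteasome subunit) and Tbr1 (a transcription factor of the cortex), with 47.4% and 34.2% in KO replicates 1 and 2. Both KO libraries exceeded 10 points over 10 consecutive windows from 60925001 to 61250000, across Rbms1, with means of 14.6 and 16.6 points against 3.99 and 3.92 points in WT. The stretch chr10:8000001-8850000 with Ust and Sash1 had 35.5% and 58.1%. There the KO means from 8350001 to 8575000 over Ust were -18.0 and -17.6 points, and the WT means were -1.94 and -3.01 points. The runs over Rbms1 and Ust were picked because both KO libraries lay beyond the bound, and the rule capped the WT mean. These contrasts are therefore a description and were not tested. The remaining gene-poor ones, chr18:28675001-29725000 and chr15:14625001-15775000, had 35.9% and 69.2%, and 53.5% and 58.1%. With the bound scaled to each library's SD, the shares in KO replicate 1 rose to 81.6% in chr2:60800001-61825000, 64.5% in chr10:8000001-8850000 and 59.0% in chr18:28675001-29725000. The lowest mean share was then 53.3%, in chr2:150200001-151025000, against 63.2% in chr2:60800001-61825000.

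The stretch chr2:150200001-151025000 had both a low KO share (50.0% and 46.7%) and the largest shift of its mean. It holds 15 protein-coding genes, with the zinc finger genes Zfp345, Zfp442 and Zfp937, Ninl, Abhd12 and Acss1 (a mitochondrial acetyl-CoA synthetase) among them. Mean polarity was 1.15 and -0.262 points in WT replicates 1 and 2 and -7.49 and -7.15 points in KO replicates 1 and 2, a difference of -7.76 points with SDs of 0.998 in WT and 0.235 in KO (n = 2 each). The KO and WT libraries did not overlap there. Among the 177 stretches, both KO means were higher than both WT means in 47 and lower in 53. No such share was computed for runs of this length elsewhere. By single windows, the KO pair was above the WT pair in 20.4% and below it in 22.2% of stretch windows. Over all autosomal windows these shares were 22.2% and 22.5%, so separation was not particular to the stretches. Next came chr5:56650001-57550000 (difference -5.78 points) and chr8:73525001-74450000 (5.76 points), then chr6:10725001-11575000 (-5.51 points) and chr15:69175001-70050000 (5.36 points), all without a protein-coding gene midpoint. These were chosen for the size of this difference, which is therefore given without a test.

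Departures shared by both KO libraries were counted next. Runs of at least 4 windows in which both KO libraries lay beyond the bound on the same side numbered 56 in 52 of the 177 stretches (29.4%), of which 20 touched an edge, 25 were positive and 31 negative. The reverse reading, both WT libraries beyond the bound in stretches chosen on the KO mean, gave 11 departures in 11 of 95 stretches (11.6%). With the bound scaled to each library's SD, 23 of 177 WT stretches (13.0%) held a departure of KO and 36 of 191 KO stretches (18.8%) held a departure of WT. The order of the readings thus reversed with the scaling of the bound.

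Stretches chosen on the KO mean overlapped those of WT in part. There were 95 with 4189 windows on the deposited scale. They shared 2762 windows with the WT stretches, which is 36.0% of the WT and 65.9% of the KO stretch windows. With the KO bound scaled to 12.3 points there were 191, and the shared windows were 59.6% of the WT and 51.5% of the KO stretch windows.

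Single windows were tested with limma over the whole table of 23672 autosomal windows that do not overlap, of which 13 passed an adjusted p-value of 0.05 (0.0549%). None of the 1918 windows in flat stretches passed (count 0), while 180 of them (9.38%) had an unadjusted p-value under 0.05, against 12.2% of all windows. The WT values that chose the stretches also enter this contrast. The lowest adjusted p-value in a stretch was 0.111 in limma, at chr10:35600001-35700000, which holds no gene midpoint, where the WT replicates had polarities of -4.45 and -0.888 points and the KO replicates of -23.5 and -21.3 points (difference -19.7 points, SE 4.53). With other settings the fit called 0 windows in stretches with each library standardised (0.372% of all windows), 0 at an adjusted p-value under 0.1 (0.228%), 0 over overlapping windows (0.076%) and 15 with limma's trend and robust options (1.28%). It called 28 with the replicate number as a block (2.66%) and 45 with that block and standardising (3.62%). Without regard to a test, the KO pair was above the WT pair in 20.4% of stretch windows and below it in 22.2%, against 22.2% and 22.5% of all windows. Without KO replicate 1, limma called 113 of the stretch windows (5.89%, against 5.79% of all windows), and without KO replicate 2 it called 238 (12.4%, against 20.2%), so the shares in the stretches were near or below those of all windows. Without WT replicate 1 or WT replicate 2 it called 0 (0.0338% and 0.0296% of all windows). Each of these fits takes the lone library of a genotype to vary like the other genotype.

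Replicates agreed to a similar absolute extent inside and outside the stretches. In WT, subtracting a replicate from the other left an SD of 5.24 points in the stretches and 5.16 points elsewhere, a ratio of 1.02, and 7.93 and 8.67 points in KO, a ratio of 0.915. After standardising each library the KO ratio was 1.11, so its direction depended on the scale. The correlation across windows was lower inside, which the rule favours in WT by capping the WT mean. Pearson's r over 7672 overlapping windows, given as a description because windows share reads and libraries, was 0.531 between the WT and 0.561 between the KO libraries, against 0.943 and 0.919 elsewhere. Between WT and KO libraries it was 0.381 to 0.559 inside. The mean profiles of WT and KO correlated at 0.608 inside and 0.932 elsewhere. These correlations include the slope that gene-poor stretches shared in all libraries, and no correlation without it was computed. Agreement was higher in gene-dense stretches, with r of 0.674 in WT and 0.708 in KO and SDs of the replicate difference of 4.18 and 6.25 points. In gene-poor stretches r was 0.493 and 0.517, and the SDs were 5.48 and 8.21 points. Depth per window is unknown, and its part in these differences was not tested.

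Local roughness was taken as the residual SD, after subtracting from a window the average of its neighbours 100 kb away. Within the stretches it was 5.48 points in WT replicate 1, 5.57 in WT replicate 2, 7.74 in KO replicate 1 and 7.78 in KO replicate 2. The rule holds the WT values down inside the stretches, so the higher KO values there were not tested. Elsewhere the same libraries had 8.34, 7.72, 10.7 and 9.30 points. The ratio inside to outside was 0.656, 0.721, 0.721 and 0.836 in the same order. WT and KO overlapped in this ratio, which the rule lowers in WT as well. No window of a stretch lacked a value in KO, against 0.216% and 0.326% of the other windows in KO replicates 1 and 2.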

How the data were processed

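Values for 4 TrAEL-seq libraries (2 WT, 2 Snf2h KO) were taken from 1 table of the whole series; each library matched 1 column by name, although label and column give different indexes for WT replicate 2. Alignment by bowtie2 to GRCm38 plus rRNA and removal of duplicates were done by the authors, per the file headers; the submitters' processing notes name Trim Galore 0.6.5 and Bowtie2 2.4.1. The deposited values are a score, the signed strand imbalance per window between -50 and 50; its program, positive strand and read minimum are not given in the sources used here. Windows missing in a WT library end a run.

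Genes came from RefSeq for GRCm38.p6, assigned by midpoint; chromosome 18 was passed over for the promoters shown; the pattern for histone genes matched no symbol (count 0). Windows were tested with limma 3.58.1 (R 4.3.3; lmFit, eBayes, Benjamini-Hochberg). On simulated data, 198 of 200 windows shifted by 30 points were recovered among 23672, with 1 false call. Smaller shifts were not simulated, such as the -19.7 points of the stretch window with the lowest adjusted p-value. How many of those the fit would recover is unknown. Other steps ran in Python 3.11.15 (pandas 2.3.3, numpy 2.4.6, matplotlib 3.10.9, scipy 1.17.1). The members, lists and rules were chosen with earlier results of these data known; stretches were named by length, gene density, KO share and KO minus WT mean.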

Additional observations from a re-analysis of the deposited data

How the results depend on the processing

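The number of stretches and the share of genes in them followed the limits of the rule. Against 177, there were 78 with a bound of 8 points, 297 with 12 points, 449 with at least 20 windows and 82 with at least 40 windows, and the share of protein-coding genes went from 5.67% to 1.66%, 12.1%, 13.3% and 2.78%. Chosen from a single WT library, the count was 109 to 155 and the gene share 3.27% to 5.60%. The KO share within the bound was 77.7%, and 72.8% to 82.6% with a single KO library and 77.0% to 79.5% with a single WT library. It became 86.2% with each library standardised and 86.7% with the bound scaled to each library's SD. The relative amplitude of 0.479 in KO was 0.438 with a bound of 8 points, 0.412 from median absolute polarity and 0.454 to 0.505 with a single KO library. The KO replicate difference relative to elsewhere, 0.915, reversed to 1.11 with standardising. The flank difference around gene-dense stretches, 11.5 points, was 16.8 with flanks of 10 windows and 7.97 with 40; these alternatives were chosen after seeing the data. Over these results and the counts below, 61 alternative values stayed close, 21 moved and 1 reversed.

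No stretch window was called in limma (count 0), nor with standardising, overlapping windows or an adjusted p-value under 0.1. With the replicate block there were 28 of 1918, 45 with the block and standardising, and 15 with trend and robust options, against 2.66%, 3.62% and 1.28% of all windows. Leaving out 1 library gave 0 to 238 calls; the 238, without KO replicate 2, are 12.4% of the stretch windows, against 20.2% of all windows in that fit. Same-numbered libraries deviated together at r of 0.241 over the 23672 windows that do not overlap. Over the 7672 overlapping windows of the stretches, where the rule caps the WT mean, r was 0.0501. These values do not settle whether the numbers pair the libraries. The main fit used no block, and the fits with the block are given beside it. The cause of these changes was not tested. Depth is unknown, which limits every share.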

Other observations

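The X chromosome was left out of the rule. By the same rule it held 9 stretches with 303 windows, 5.10% of its 5941 windows with WT values, and the longest spanned 1.175 Mb. Within them 55.8% and 63.4% of windows lay within 10 points of 0 in KO replicates 1 and 2. The RMS polarity relative to the rest of the X chromosome was 0.612 and 0.676 in KO, and 0.433 and 0.498 in the WT libraries that chose the stretches.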
